A study of Arabidopsis thaliana with 8 samples.

Results

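Of 56063 nuclear cytosines listed as differentially methylated between selected and ancestral Arabidopsis populations, 1117 were listed in both inbred lines, CVL39 and CVL125. These cytosines are called both-line positions here. A position was a both-line position when the same chromosome, strand and coordinate occurred in at least 1 of the 3 lists of CVL39 and in at least 1 of the 3 lists of CVL125, and when it lay outside runs of 4 or more CT dinucleotides on its own strand of the reference. The remaining 54946 positions were listed in a single line, 29651 in CVL39 and 25295 in CVL125, and are called one-line positions. The both-line positions were thus chosen on the listing itself, that is on the p-values the authors deposited, so their number and their p-values are given as a description with no test. The lists hold a chromosome, a strand, a coordinate and a p-value for each cytosine. The study describes these SOLiD data as a pilot of low coverage. The lists give no methylation level, no direction of the difference and no read depth, and the set of cytosines the authors tested is not known from them. A both-line position may therefore have differed in opposite directions in the 2 lines.

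CVL39 and CVL125 are recombinant inbred lines of Arabidopsis thaliana, each a near-homozygous mosaic of the accessions Ler and Cvi. The selected groups, CVL39 D1, D5 and D6 and CVL125 D1, D5 and D6, came from 3 replicated dynamic landscapes, numbered 1, 5 and 6, after 5 generations of selection. The ancestral groups, 1 for CVL39 and 1 for CVL125, had not gone through selection. All were grown side by side without selection to the second generation and sampled at 25 days of age, and each sample was 1 pool of DNA from the above-ground tissue of 4 plants. Each of the 6 lists set 1 selected pool against the ancestral pool of its line, so the 3 lists of a line share a reference pool, whereas lists of different lines share no pool. Methylated cytosine resists bisulfite and reads as cytosine, while unmethylated cytosine reads as thymine.

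In Arabidopsis, cytosines are methylated in the contexts CG, CHG and CHH, where H is A, C or T. CG methylation is copied onto the new strand after replication and occurs both in transposons and in the coding bodies of many expressed genes. CHG methylation is tied to a histone mark of silent chromatin, and CHH methylation, which has no symmetric partner, is set anew by small RNA and by chromatin pathways. CHG and CHH methylation are found mainly in transposons, which are dense around the centromeres. Many transposons are annotated as pseudogenes in the RefSeq version of TAIR10 used here.

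The positions listed most often are shown first, because they came closest to being listed in every population. None of the 1117 positions was in all 6 lists, and 8 were in 5 lists. Of these, 7 were CG and 1 was CHH. In the sequences, read 5′ to 3′ on the listed strand of TAIR10, the capital marks the listed cytosine. The windows of AT3G29130 and AT5G15390 are shorter because they reach exons outside the coding sequence.
AT1G43900 (chr1:16655298-16655348, plus strand): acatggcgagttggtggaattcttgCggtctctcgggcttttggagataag
AT2G35030 (chr2:14762294-14762344, minus strand): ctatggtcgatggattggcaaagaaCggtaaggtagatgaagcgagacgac
AT3G25210 (chr3:9181290-9181340, plus strand): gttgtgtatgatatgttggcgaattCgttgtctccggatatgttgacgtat
AT3G29130 (chr3:11102982-11103010, minus strand): gttatatgcggttgCggttaatggttacg
AT4G04755 and AT4G04765 (chr4:1786125-1786175, plus strand): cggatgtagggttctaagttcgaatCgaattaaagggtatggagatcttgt
AT4G35140 (chr4:16724167-16724217, minus strand): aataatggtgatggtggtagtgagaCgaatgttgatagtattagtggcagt
AT5G15390 (chr5:4996898-4996926, plus strand): aataagtgacgaagCgttggagttatcag
Outside annotated genes (chr5:11762954-11763004, minus strand): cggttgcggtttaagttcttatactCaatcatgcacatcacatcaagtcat

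Of the 7 CG positions, 5 lay in coding exons of protein-coding genes. AT1G43900 encodes a protein of the 2C family of protein phosphatases, and its position at chr1 16655323 was listed in all 3 CVL39 populations, with deposited p-values of 0.00216, 0.00466 and 0.00476, and in CVL125 landscapes 1 and 5, with 5.14e-05 and 0.000333. AT2G35030 encodes a pentatricopeptide repeat protein, a family that binds organellar RNA, and AT3G25210 encodes a tetratricopeptide repeat-like protein. AT4G35140 encodes a WD40 repeat protein and AT5G15390 an RNA methyltransferase of the SpoU family. The position of AT3G29130, which encodes a protein with a KxDL motif, lay in an exon outside the coding sequence. The remaining CG position, at chr4 1786150, lay in exons of 2 noncoding RNA genes, AT4G04755 and AT4G04765. Over the 8 positions, the 40 p-values ran between 5.14e-05 and 0.0476 with a median of 0.00748. Each of the 8 windows occurred once as an exact 51-base sequence in the nuclear genome. The chromosome 5 window nevertheless holds a run of 29 bases that occurs 211 times, described below. The study's alignment allowed mismatches, so an exact count does not show that reads were placed uniquely.

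The both-line positions were 3.63% of the 30768 positions of CVL39 and 4.23% of the 26412 positions of CVL125. Of the 42761104 nuclear cytosines of the reference outside CT runs, 0.072% were listed in CVL39, 0.0618% in CVL125 and 0.00261% in both. These shares refer to all reference cytosines, since the tested ones are unknown. Most both-line positions were listed the smallest possible number of times, with 747 in 1 list of each line. A further 138 were in 2 lists of CVL39 and 1 of CVL125, and 138 in 1 of CVL39 and 2 of CVL125. Another 25 were in 1 list of CVL39 and 3 of CVL125, 24 were in 3 of CVL39 and 1 of CVL125, and 45 were in at least 2 lists of each line. Just outside the rule, 1231 positions were in all 3 lists of 1 line and in no list of the other.

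Listing in more populations of a line went with only small differences in the share also listed in the other line. Of CVL39 positions in 1, 2 and 3 lists, 3.46%, 4.80% and 3.71% were also listed in CVL125. Of CVL125 positions in 1, 2 and 3 lists, 4.08%, 4.97% and 5.35% were also listed in CVL39. The lists of a line share their ancestral pool, so these shares were not tested. The edge of the rule on CT runs held few positions, with 4 positions left out in runs of exactly 4 CT dinucleotides and 12 members in runs of exactly 3.

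Per list, between 3.59% and 4.53% of the positions were both-line positions. In CVL39 these were 434 of 11076 in landscape 1 (3.92%), 465 of 12291 in landscape 5 (3.78%) and 452 of 12608 in landscape 6 (3.59%). In CVL125 they were 468 of 11294 in landscape 1 (4.14%), 564 of 12694 in landscape 5 (4.44%) and 323 of 7128 in landscape 6 (4.53%). The share averaged 3.76% ± 0.168 in CVL39 and 4.37% ± 0.203 in CVL125 (SD, n = 3 lists each), a difference of -0.611 percentage points. The groups did not overlap. This is a description, since the rule used the listing and the same 1117 positions stand against fewer positions in CVL125. Without landscape 6, whose CVL125 list is the shortest, the difference was 0.0214 percentage points, so its direction rested on that landscape.

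**Figure D1:**
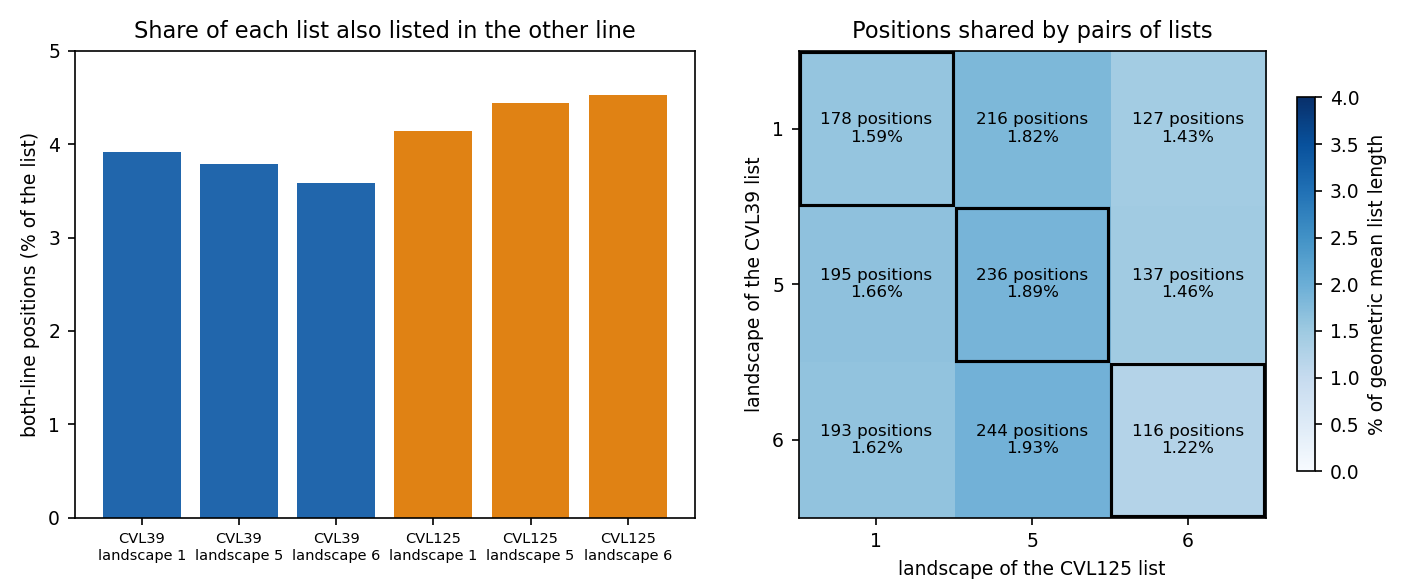
Left, the percentage of each list that consisted of both-line positions, for the 3 CVL39 lists (blue) and the 3 CVL125 lists (orange). Right, the positions shared by each of the 9 pairs of a CVL39 and a CVL125 list, as a number and in percent of the geometric mean of the 2 list lengths, with pairs from the same landscape framed. The pairs ranged between 1.22% and 1.93%, and the framed pairs include the lowest of the 9.

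Both lines went through selection in the same 3 landscapes, so sharing was set out for lists of the same and of different landscapes. The shared positions numbered 178 for landscape 1, 236 for landscape 5 and 116 for landscape 6, against 127 to 244 for the 6 pairs of different landscapes. In percent of the geometric mean of the 2 list lengths, sharing averaged 1.57% within landscapes and 1.65% between them. The difference was -0.0845 percentage points, and without landscape 6 it was 0.00208. It is given with no test, because the listing chose the positions and 3 landscapes have too few orders for a permutation to reach 0.05.

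Both-line positions were more often CG positions in gene bodies, and less often in CHG context and in gene-poor stretches, than one-line positions. In all, 565 of the 1117 were CG (50.6%), 203 were CHG (18.2%) and 349 were CHH (31.2%), while one-line positions were 44.5% CG, 20.9% CHG and 34.7% CHH. Of the reference cytosines outside CT runs, 13.0% are CG, 14.2% CHG and 72.7% CHH, so listing was densest in CG in both sets. Whether the higher CG and gene-body shares of both-line positions follow from where listing is dense was not tested. The comparison was made inside each list, since whether a position of a list was a both-line position was decided by the lists of the other line alone. A total of 8 properties of the reference were compared by the two-sided exact sign-flip permutation test over the 6 lists, whose smallest p is 0.03125, and adjusted by the Benjamini-Hochberg method over the 8. A property was called at an adjusted p of 0.05 or less. Each property called below had the smallest possible p, which adjusts to 0.05 only because several properties reach it together. These properties overlap in what they measure, so each call rests on the others. By the rule, each both-line position stands in at least 1 list of each line, so the lists of both lines draw on the same 1117 positions. The lists of a line also share a pool. The 6 differences are therefore not independent, agreement of the 6 lists is partly built in, and the p-values are too small to an unknown extent.

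The CG share of both-line positions was 48.8%, 50.1% and 60.2% in the CVL39 lists of landscapes 1, 5 and 6, and 51.7%, 57.8% and 41.5% in the CVL125 lists. The matching shares of one-line positions were 44.2%, 47.6% and 46.4% in CVL39 and 47.9%, 52.7% and 37.9% in CVL125. It was thus higher among both-line positions in 6 of 6 lists, by 2.47 to 13.7 percentage points, with means of 51.7% ± 6.69 and 46.1% ± 4.90 (SD, n = 6 lists; exact permutation p = 0.03125, adjusted p = 0.05). The CHG share was lower in 6 of 6 lists, at 17.5% ± 2.95 of both-line and 20.1% ± 2.33 of one-line positions (exact permutation p = 0.03125, adjusted p = 0.05). The CHH share averaged 30.8% ± 4.52 and 33.8% ± 2.70 and was lower in 5 of 6 lists, which did not pass (exact permutation p = 0.0625, adjusted p = 0.0833).

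Gene bodies of protein-coding genes held 53.4% ± 7.24 of both-line and 46.9% ± 4.90 of one-line positions (n = 6 lists). The share was higher in 6 of 6 lists (exact permutation p = 0.03125, adjusted p = 0.05), although in the CVL125 list of landscape 6 the excess was only 0.128 percentage points. Within CG context alone, the gene-body share was 84.6% ± 4.01 of both-line and 78.6% ± 2.73 of one-line positions, higher in 6 of 6 lists (exact permutation p = 0.03125, adjusted p = 0.05). Within CHH context, it was 21.6% ± 5.37 and 21.7% ± 2.35, with 3 lists higher and 3 lower (exact permutation p = 0.9375, adjusted p = 0.9375). Gene-poor windows, the stretches of 500 kb with under 30% of their bases in protein-coding genes, held 35.8% ± 4.43 of both-line and 41.6% ± 3.89 of one-line positions, lower in 6 of 6 lists (exact permutation p = 0.03125, adjusted p = 0.05). Without landscape 6 this last difference was -9.64 percentage points, against -5.85 with all lists.

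**Figure D2:**
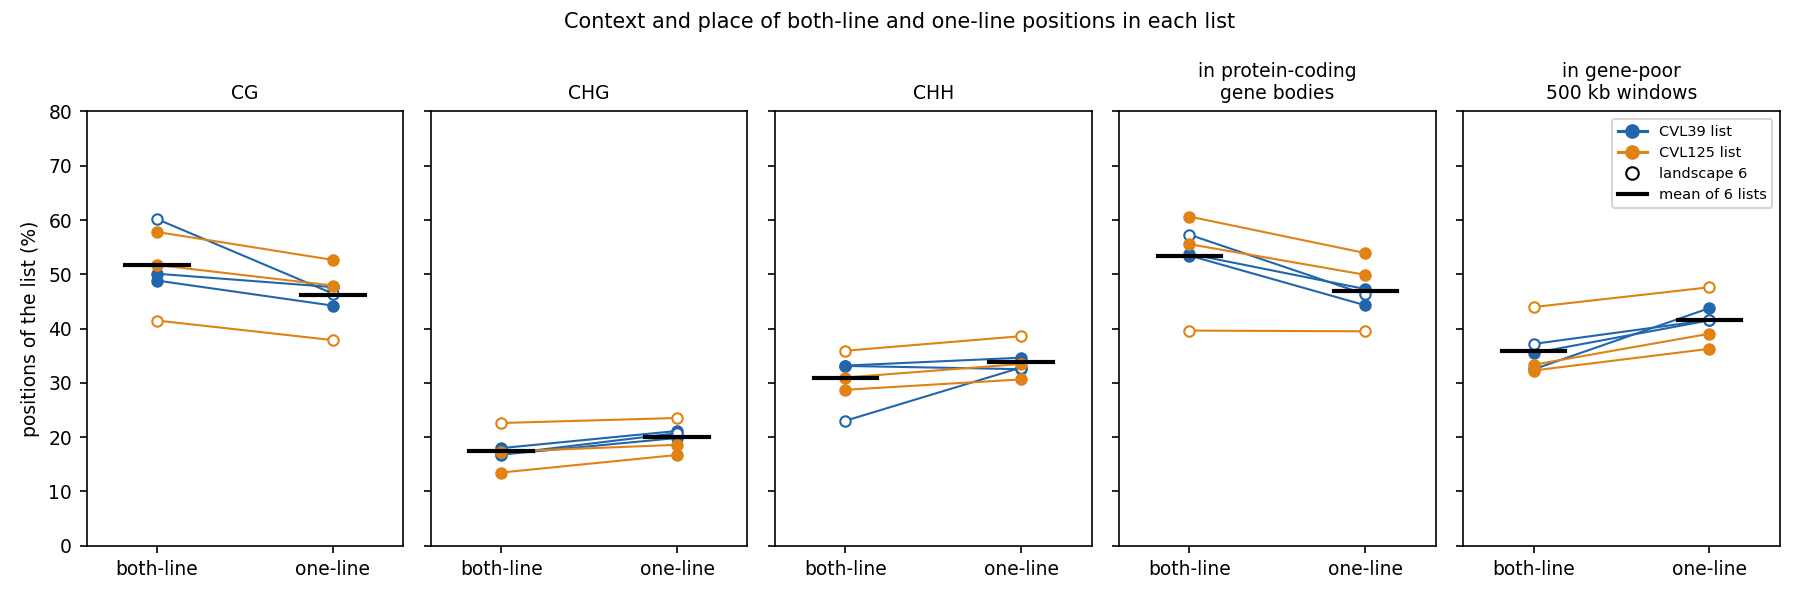
Percentage of the positions of each list in CG, CHG and CHH context, in protein-coding gene bodies and in gene-poor windows of 500 kb, for both-line positions (left in each panel) and one-line positions (right), with a line joining the values of 1 list. Black bars are means of the 6 lists, and the CG and gene-body lines fall from left to right in 6 of 6 lists while the CHG and gene-poor lines climb.

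These differences depend on what counts as the same position. When CT runs were kept, the CG difference turned to -3.10 and the CHH difference to 8.36 percentage points, and neither passed (exact permutation p = 0.28125 and 0.09375, adjusted p = 0.28125 and 0.107). In a further alternative, a position of the other line within 10 bp on the same strand sufficed. The CG and gene-body differences then turned to -8.89 and -4.53 percentage points and passed in the opposite direction (exact permutation p = 0.03125, adjusted p = 0.05 for each). The gene-poor difference turned to 2.33 and did not pass (exact permutation p = 0.0625, adjusted p = 0.0714). Listed cytosines stood closer together in CHH than in CG context. For one-line positions, the median distance to the nearest other listed position on either strand was 25 bases in CHH and 147 in CG context. A tolerance of 10 bp can therefore add more CHH than CG positions, and its part in the turned differences was not tested. With pseudogenes and noncoding genes counted as gene bodies too, the gene-body difference was 1.12 percentage points (exact permutation p = 0.4375, adjusted p = 0.4375). For gene bodies within CG context the difference was then 1.70 (exact permutation p = 0.09375, adjusted p = 0.15). At a p-value of 0.005 or less it was 7.16 (exact permutation p = 0.0625, adjusted p = 0.0625). With the 10 bp tolerance it turned to -3.60 and passed in the opposite direction (exact permutation p = 0.03125, adjusted p = 0.05).

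Exact copies elsewhere in the genome were rare around both sets of positions. A 51-base sequence centred on the position and found again exactly elsewhere in the nuclear genome was present at 24 of the 1117 both-line positions (2.15%) and at 2.52% of one-line positions. Per list the shares averaged 2.17% ± 0.478 and 2.46% ± 0.311 (n = 6 lists, exact permutation p = 0.15625, adjusted p = 0.179). With 31-base sequences the shares were 11.4% and 10.2%. After conversion of each C to T, as bisulfite reads would show it, they were 6.89% and 5.99% for 51 bases.

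Among CG positions, those followed by G stood out after the values were seen, and no test was made. Of the 565 both-line CG positions, 182 (32.2%) were in the trinucleotide CGG, against 26.2% of one-line CG positions. The share was higher among both-line positions in each of the 6 lists, at 28.8% to 32.8%, against 25.5% to 27.9%. The median GC content of the 51-base windows was the same in both sets, at 47.1% around CG positions.

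Both-line CG positions lay mostly in coding sequence. Of 565, 473 were inside protein-coding genes, and 441 of these (93.2%) were in coding exons and 25 (5.29%) in introns. For one-line CG positions inside protein-coding genes the shares were 89.7% in coding exons and 7.48% in introns. Their place along the gene was alike, with medians of 62.9% and 63.8% of the gene's length from the 5′ end. Of the 473 both-line positions, 4 lay in the first 10% of the gene and 82 (17.3%) between 80% and 90% of its length, which held the most. The strand of the gene carried 65.3% of both-line and 64.1% of one-line CG positions. In the other contexts few positions were genic. Of 75 both-line CHH positions in protein-coding genes, 32 (42.7%) were in coding exons, and of 32 CHG positions 16 (50%), against 66.6% and 77.9% of one-line positions. These differences were not tested, and 4 of the 75 were neighbours in 1 exon of AT5G47540.

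**Figure D3:**
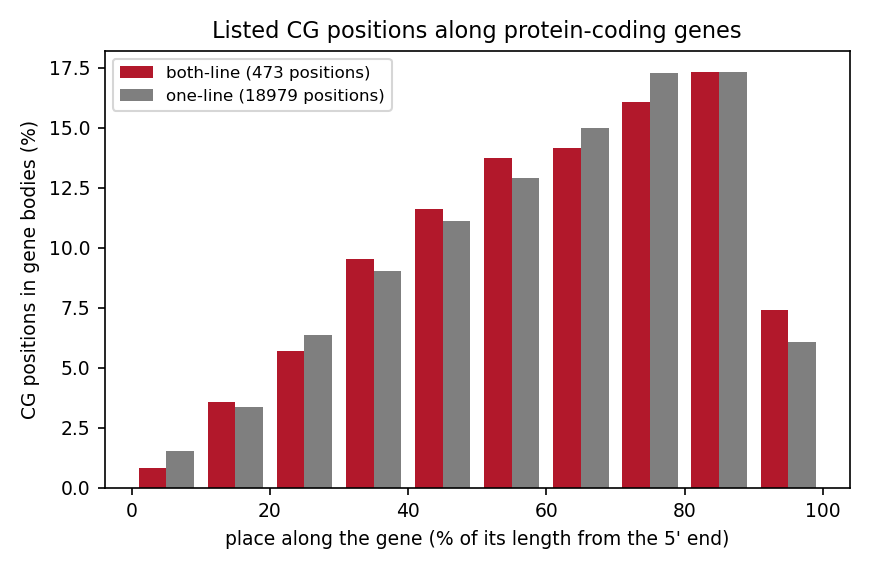
CG positions inside protein-coding genes by their place along the gene, in bins of 10% of its length from the 5′ end, as a percentage of the 473 both-line (red) and of the 18979 one-line (grey) positions. Both sets are sparse in the first 10%, with 0.846% and 1.53%, and peak between 80% and 90%, with 17.3% in both.

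CG methylation is symmetric, so the cytosine on the opposite strand of the same CG was looked up. It was listed at 43 of the 565 both-line CG positions (7.61%) and at 6.46% of one-line CG positions. In no case were the cytosines on both strands of a CG both-line positions. The opposite cytosine was therefore listed in a single line at each of the 43.

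Both-line positions were spread over the 5 chromosomes and were densest in the same gene-poor stretches as one-line positions. Chromosomes 1 to 5 held 263, 165, 224, 191 and 274 of them, or 8.64, 8.38, 9.55, 10.3 and 10.2 per Mb, and they made up 1.70% (chromosome 2) to 2.21% (chromosome 5) of the listed positions. Of 240 windows of 500 kb, 16 held none, and the median was 3. The 41 gene-poor windows, 17.2% of the genome, held 421 both-line positions with a median of 9 per window. The 199 other windows held 696 with a median of 3.

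The window with the most was chr5:11500001-12000000, with 37 both-line and 1087 one-line positions. It was followed by chr4:3500001-4000000, with 31 and 1364, by chr5:11000001-11500000, with 22 and 1012, and by chr3:14000001-14500000, with 19 and 918. Each of these 4 windows was gene-poor, with 2.12% to 8.15% of its bases in protein-coding genes. A pair of windows with 18 each came next. The window chr5:13000001-13500000 was again gene-poor and had 665 one-line positions, but chr1:9500001-10000000 had 61.3% of its bases in protein-coding genes and 313 one-line positions, so that 5.44% of its listed positions were both-line positions. In this window, 13 of the 18 lay between AT1G27550 and AT1G27570 or within 1 kb of them.

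**Figure D4:**
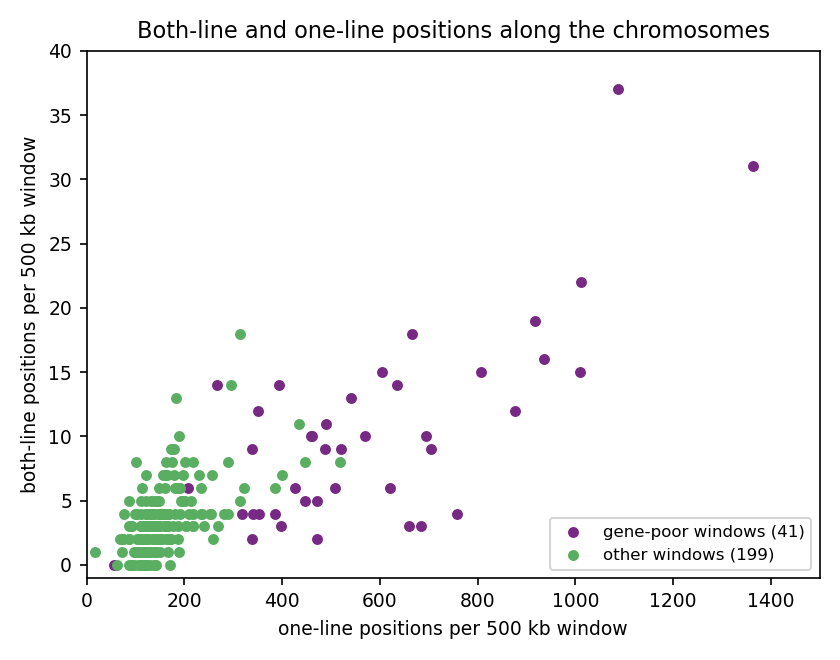
Both-line against one-line positions in 240 windows of 500 kb, with each point 1 window, for 41 gene-poor windows (purple) and 199 other windows (green). The 2 highest points, with 37 and 31 both-line positions, are gene-poor windows with 1087 and 1364 one-line positions, and the highest green point, with 18, has 313.

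The study describes a stretch of chromosome 2 that was heterozygous for Ler and Cvi sequence in CVL125. Its coordinates were not given in the sources used here, so the 165 both-line positions of chromosome 2 were kept, and the part of that stretch in them was not tested.

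Both-line positions stood close to other listed cytosines. Another listed position lay within 50 bp of 716 of the 1117 (64.1%), against 48.8% of one-line positions. The shares were 50.8% and 39.5% in CG context, 71.4% and 50.5% in CHG context, and 81.4% and 59.8% in CHH context. Another both-line position lay within 100 bp of 145 both-line positions (13.0%) and of 3.76% of one-line positions. Since the neighbours come from the same lists as the rule, these values are a description.

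Joined at gaps of up to 100 bp, the 1117 positions formed 972 single positions, 61 pairs, 2 clusters of 3, 2 clusters of 4 and 1 cluster of 9. In 50 of the 61 pairs both positions were on the same strand. In 41 both had the same context, with 23 pairs of CHH, 13 of CG and 5 of CHG. The median span of a pair was 12 bases. The 6 leading clusters by number of positions, then by lists, are shown because their sequences differ in kind. Capitals mark the both-line cytosines, and each sequence is read 5′ to 3′ on the listed strand of TAIR10 with 8 bases added at both ends.
AT4G08078 (chr4:4963372-4963405, plus strand): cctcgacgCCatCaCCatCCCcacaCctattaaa
AT2G07420 (chr2:3086424-3086537, plus strand): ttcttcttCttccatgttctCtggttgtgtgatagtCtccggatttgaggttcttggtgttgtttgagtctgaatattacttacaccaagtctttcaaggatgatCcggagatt
AT5G47540 (chr5:19283123-19283151, minus strand): cacacacaCaCacaCacacaCacacacac
Outside annotated genes (chr4:2606093-2606142, plus strand): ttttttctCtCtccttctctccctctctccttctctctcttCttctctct
Outside annotated genes (chr5:11795342-11795447, minus strand): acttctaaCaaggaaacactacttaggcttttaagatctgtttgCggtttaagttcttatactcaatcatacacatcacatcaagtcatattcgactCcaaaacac
AT1G17230 (chr1:5891965-5891993, plus strand): tggattctCgggtgtgattcCgtctgaaa

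The cluster of 9 occupied 18 bases of the pseudogene AT4G08078 (chr4:4960143-4963962), with each of its cytosines in CHH context. All 9 were listed in landscape 5 of both lines, with deposited p-values between 0.0124 and 0.0351 in CVL39 and of 0.00097 or 0.00339 in CVL125. A further 2 were listed in CVL125 landscape 6, each with a value of 0.00794. The 9 cytosines had 3 distinct p-values in the CVL39 list and 2 in the CVL125 list of landscape 5. None of the 9 was listed in landscape 1 or in CVL39 landscape 6.

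The cluster of AT5G47540, which encodes a protein of the Mo25 family of kinase scaffolds, lay in a run of CA repeats in an exon outside the coding sequence. Its 4 CHH positions were listed in CVL39 landscape 6, with deposited p-values between 0.0014 and 0.0256, and in CVL125 landscape 5, with values between 0.00466 and 0.0291. The chromosome 4 cluster outside annotated genes lay in a stretch of C and T, and its 3 positions were outside the one run of 4 CT dinucleotides in the printed sequence. In 51-base windows, C and T made up 80% or more of the bases at 52 of the 349 both-line CHH positions (14.9%) and at 6.38% of one-line CHH positions, a property looked at after the clusters were seen. Positions inside a run of 4 or more copies of any other unit of 2 or 3 bases were rare, with 10 of the 1117 (0.895%) and 0.622% of one-line positions.

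The chromosome 5 cluster shared a run of 29 bases with the CHH position listed 5 times on the same chromosome, ttgcggtttaagttcttatactcaatcat, both times on the minus strand. This run occurred 211 times in the nuclear genome, always in gene-poor windows, and the most common distance between neighbouring copies was 178 bases (46 of 203 distances), the pattern of a tandem repeat. Of the 1117 both-line positions, 32 (2.86%) lay within 178 bp of a copy, against 493 one-line positions (0.897%). Of the 32, 16 were on chromosome 5. The run was taken from the members themselves, so no test was made.

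The pair of CG positions in AT1G17230, a gene for a leucine-rich receptor-like kinase overlapped by the antisense noncoding RNA gene AT1G17232, was listed in many populations for its size. Both positions were listed in each of the 3 CVL39 lists, and in CVL125 1 was listed in landscape 1 and 1 in landscape 5. The gene held 1 one-line position besides.

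Of 37899 annotated nuclear genes, 773 (2.04%) held at least 1 both-line position, and 538 of these were protein-coding. A single both-line position was held by 679 genes, 2 by 70 genes and 3 or more by 24 genes. Of the 24, 20 were pseudogenes and 4 were protein-coding, a count that does not take into account how many listed positions of any kind a gene held. In all, pseudogenes held 304 both-line positions (27.2%) and 32.03% of one-line positions, and 226 (20.2%) and 22.0% were outside any annotated gene. The 12 genes with the most both-line positions were 8 pseudogenes, 1 transcribed pseudogene and 3 protein-coding genes.

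AT4G08078, described above, had the most with 9, in addition to 18 one-line positions. AT3G42100 (chr3:14275159-14281278), a pseudogene, held 8 spread over about 4 kb, with 5 of CHH, 2 of CHG and 1 of CG context, among 111 one-line positions. They were listed 5, 4 and 2 times in CVL39 landscapes 1, 5 and 6 and 4, 3 and 3 times in CVL125. Its CHH position at chr3 14276557 was in all 3 CVL39 lists, with deposited p-values of 0.0101, 0.00466 and 0.000247, and in CVL125 landscape 6 with 0.0131. The pseudogenes AT5G34851 and AT5G26345 held 6 and 5, with 78 and 101 one-line positions, and none of either was CG.

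On chromosome 1, AT1G27560 and AT1G27570 were both among the 12. AT1G27560 (chr1:9570855-9571987), a transcribed pseudogene related to F-box genes, held 5 both-line positions within its short span, of which 3 were CHH, 1 CHG and 1 CG, and 43 one-line positions. They were listed 2, 3 and 0 times in CVL39 landscapes 1, 5 and 6 and 3, 4 and 4 times in CVL125. A CHG position at chr1 9571358 was in each CVL125 list, with deposited p-values of 0.00654, 0.0229 and 0.0147, and in CVL39 landscape 1 with 0.00699. AT1G27570 (chr1:9575538-9582376), which encodes a protein of the phosphatidylinositol 3- and 4-kinase family, held 4 positions, each of them CG, with 3 in coding exons and 1 in an intron. Each was listed once in CVL39 and once in CVL125. Its one-line positions numbered 16.

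GLR2.3 (AT2G24710, chr2:10516780-10520684) encodes a glutamate receptor-like channel and held 4 both-line positions in coding exons, of which 2 were CHG, 1 was CHH and 1 was CG. Its 4 positions were all listed in CVL125 landscape 5, with deposited p-values between 0.00994 and 0.0476. In CVL39, 3 were listed in landscape 1, 1 in landscape 5 and 1 in landscape 6. The gene held 87 one-line positions. AT1G44510, a pseudogene, held 4 positions, each of them CG, and the pseudogenes AT1G43750, AT2G07420 and AT3G32230 held 4 each, of which 2 were CHG and 2 CHH in each gene.

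**Figure D5:**
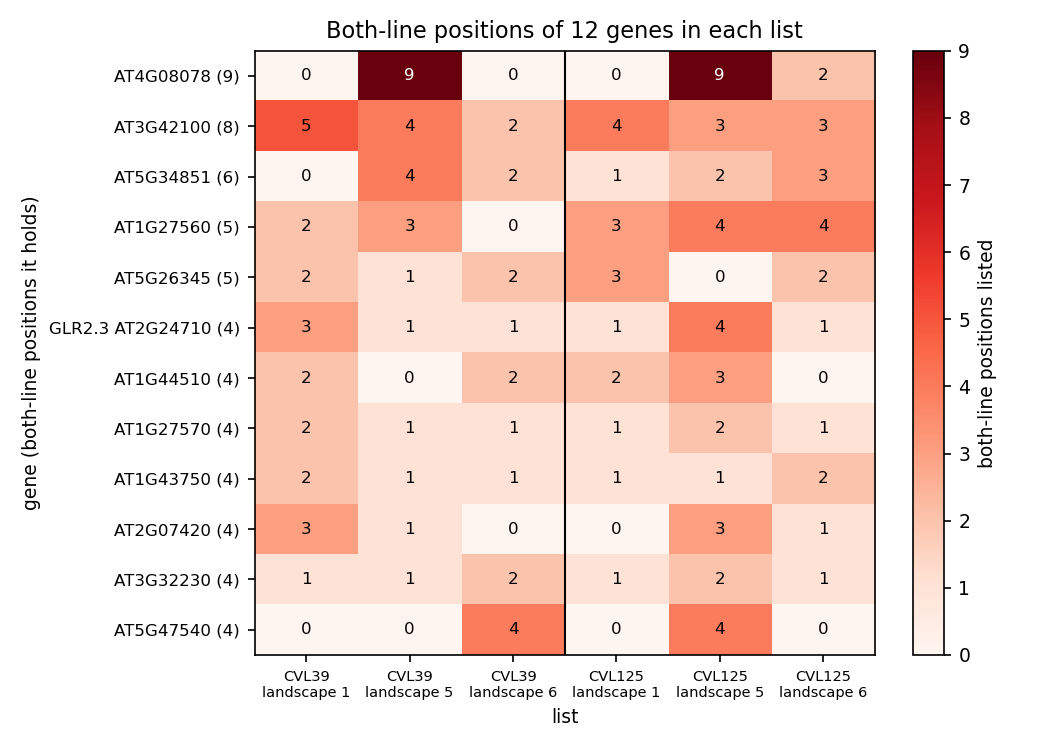
Number of both-line positions listed in each of the 6 lists for the 12 genes with the most, CVL39 lists left of the line and CVL125 lists right, with the gene's total in brackets. The positions of AT4G08078 fall in landscape 5 of both lines and those of AT5G47540 in CVL39 landscape 6 and CVL125 landscape 5, whereas those of AT3G42100 are spread over 6 of 6 lists.

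The counts per gene depend on single landscapes and on how often a position had to be listed. Without landscape 5, AT4G08078, AT5G34851, GLR2.3 and AT5G47540 held 0 both-line positions and AT3G42100 held 4. Without landscape 6, AT5G47540 held 0, AT5G34851 1 and AT3G42100 5, and without landscape 1, AT3G42100 held 3 and AT5G26345 1. The other genes of the 12 held 1 to 5 with any landscape left out. With at least 2 lists required in each line, each of the 12 held 0. When positions with a p-value of 0.005 or less alone were used, 55 both-line positions were left, of which AT5G47540 held 1 and the other 11 genes 0.

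Genes of flowering time and of DNA methylation were examined because the selected populations were compared for traits of reproduction and for methylation. Of all annotated genes, pseudogenes and noncoding genes included, 35.4% held a listed position of any kind. Of 43 genes of flowering time and the clock, 22 held a listed position and 1 held a both-line position. This was FPA (AT2G43410), an RNA-binding protein of the autonomous flowering pathway, with a CG position in a coding exon at chr2 18028309. It was listed in CVL39 landscapes 1 and 6, with deposited p-values of 0.0476 and 0.00216, and in CVL125 landscape 5 with 0.0278. FPA held 10 one-line positions besides, 2 of CVL39 and 8 of CVL125. Its window of 500 kb held 14 both-line and 295 one-line positions, so that 4.53% of the listed positions there were both-line positions. Of 33 genes of DNA methylation and silencing, 29 held a listed position and 1 held a both-line position. This was MOM (AT1G08060), a factor of transcriptional silencing, with a CG position in a coding exon at chr1 2502136. The position was listed in landscape 5 of both lines, with deposited p-values of 0.021 in CVL39 and 0.0476 in CVL125. MOM held 3 one-line positions besides. With 1 gene each holding a both-line position, the lists stand beside the 2.04% of all annotated genes. Neither gene length nor gene type was taken into account in these counts, and shares over protein-coding genes alone were not computed.

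Within a list, the deposited p-values of both-line positions had slightly lower medians. The medians of both-line positions in landscapes 1, 5 and 6 were 0.0231, 0.0222 and 0.0181 in CVL39 and 0.0220, 0.0207 and 0.0242 in CVL125. Those of one-line positions were 0.0256, 0.0244 and 0.0242 in CVL39 and 0.0242, 0.0220 and 0.0286 in CVL125. The medians were lower for both-line positions in 6 of 6 lists. The share with a p-value of 0.005 or less was higher for them in 4 lists, but was 18.4% against 18.8% in CVL39 landscape 6 and 17.31% against 17.33% in CVL125 landscape 1. These values are a description, because the rule used the same p-values.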

How the data were processed

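Bisulfite libraries of 8 pools were sequenced on the SOLiD system. The authors aligned reads to Ler and Cvi sequences built from TAIR10, compared each selected pool with the ancestral pool of its line and deposited 1 list of cytosines per selected pool, each with a p-value of at most 0.05. The test and read depth are not given in the sources used here. The 6 lists held 7389 to 14244 positions. Positions counted from 0 fell on a reference cytosine in 99.4% to 99.6% of cases and are printed counted from 1. Contexts, copies, genes and sequences were taken from RefSeq TAIR10.1, whose nuclear chromosomes are those of TAIR10, with Python 3.11.15, numpy 2.4.6 and pandas 2.3.3. Positions off reference cytosines, organellar positions and CT runs were left out. Shares and sharing per line and landscape are descriptions. The exact permutation test over the 6 lists was checked on simulated data with a planted difference. Its rate of false calls was checked on independent differences alone, and those of the 6 lists are not independent. Each pool of 4 plants was 1 sample, and 1 ancestral pool lies behind the 3 lists of a line. The genes named were the 12 with the most both-line positions, ties ordered by lists summed and then by identifier, with positions in 5 or more lists, the 6 leading clusters, the 5 leading windows with ties, and members of the gene lists holding a both-line position. The members, the properties compared and the gene lists were chosen with earlier results of these data known. Alternatives were a stricter p-value, CT runs kept or removed more widely, a 10 bp tolerance, 2 lists per line, other windows and gene sets, and each landscape left out.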

Additional observations from a re-analysis of the deposited data

Results flagged for a closer look

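Data outside the comparisons also held cytosines listed in both lines. In runs of 4 or more CT dinucleotides, 260 of 2065 listed positions were in both lines, a far larger share than any of those that follow. In the chloroplast, 11 of 291 listed positions were in both lines (3.78%), and in the mitochondrion 3 of 205 (1.46%). Among the nuclear cytosines compared in the report the share was 1.99%. The study takes the chloroplast genome as unmethylated and gauged bisulfite conversion from it in its Illumina data. Listing in both lines thus also occurred where the study assumes no methylation, and its bearing on the nuclear positions was not tested. Another 309 listed nuclear positions carried a base other than cytosine in the reference, and 7 of them were listed in both lines (2.27%).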

How the results depend on the processing

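There were 1117 both-line positions as reported, 55 at a p-value of 0.005 or less, 3798 with a tolerance of 10 bp and 45 with 2 lists required per line. With a landscape left out, 523 to 645 remained, and 4 lists cannot give an exact permutation p under 0.125, so that no property could pass. The differences between both-line and one-line positions then ranged over 5.21 to 8.13 percentage points for CG, -3.64 to -2.04 for CHG, 6.44 to 9.62 for gene bodies, 5.62 to 8.33 for gene bodies within CG and -9.64 to -4.26 for gene-poor windows. The difference for gene bodies within CHH ranged over -3.63 to 3.09, that between lines over -0.629 to 0.0214 and that between same and different landscapes over -0.14 to 0.00208, each turning without landscape 6. With a p-value of 0.005 or less, CHH (-7.33) and copied windows (-1.40) passed, gene bodies within CG (7.16) did not, and gene bodies within CHH (52.0) and the landscape difference (0.0128) turned. The turned difference for gene bodies within CHH passed, but it rests on the CHH members alone of the 55 both-line positions, which recur over lists. With CT runs kept, CG (-3.10), CHH (8.36), gene bodies within CHH (11.1) and copied windows (5.18) turned. Of these, gene bodies within CHH alone passed in the turned direction. With runs of 3 or more left out on either strand, CHH passed (-3.36) and gene bodies did not (6.62). With a tolerance of 10 bp, CG (-8.89), CHH (10.1), gene bodies (-4.53), gene bodies within CG (-3.60) and within CHH (5.13), gene-poor windows (2.33) and copied windows (0.928) turned, and CHG did not pass (-1.20). Of those that turned, gene bodies within CHH and gene-poor windows did not pass, and the others passed in the turned direction. With 2 lists per line, CHH passed (-5.33) and gene bodies within CHH (28.3) and copied windows (2.39) turned. Copied windows passed in the turned direction, and gene bodies within CHH did not. Under that rule a both-line position also had to stand in 2 lists of its own line, whereas a one-line position could stand in a single list. Membership was no longer decided by the lists of the other line alone. The values for these 45 positions therefore mix sharing between lines with recurrence within a line, and no conclusion is drawn from them. Copies of 31 bases turned the copied share to 1.30. With all annotated genes, gene bodies (1.12) and gene bodies within CG (1.70) did not pass. The causes were not tested. Deviations in positions per window correlated at -0.193, 0.254 and -0.189 between the lists of the 2 lines from landscapes 1, 5 and 6, over 240 windows. Between lists of different landscapes the correlations ran from -0.301 to 0.320, so these values do not settle whether the landscapes pair the lists. Taking the landscape as a replicate block cannot change the mean difference between lines, which is -0.611 either way. Coverage was low by the study's description and its depth per position is unknown, so a position absent from a list may have been unchanged or too thinly covered.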
